A study of Mus musculus with 33 samples.

Results

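The genes of glycolysis and lactate handling were followed across lines of mouse colon organoids. Their list names 34 genes by their place in the pathway, and it was chosen with earlier results of these data known. It was matched by symbol to the 32285 genes of the deposited count tables. All 34 were found and 32 of them passed the filter of at least 1 CPM (a gene count scaled to the total count of its library) in at least 3 libraries, which 13606 genes passed in all. Of the 32, *Slc2a3*, *Eno2* and *Pck1* passed only through 1 line, organoid AKP, in vivo AKP and control, so they had to differ between lines, and they are described by their counts with no p-value. The remaining members were *Slc2a2*, a glucose carrier known from liver and from the basal side of gut epithelium, which had no count in any library, and *Fbp1*, a fructose bisphosphatase of liver and kidney, which had 4 counts in all.

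The 33 libraries were made from organoids of AKP cells, whose alleles include *Apc* fl/fl and *Trp53* fl/fl, so that Cre removes *Apc* and *Trp53* function. Control organoids (6 libraries) were not induced, organoid AKP (6 libraries) had been recombined in organoid culture by a Cre that a lentivirus delivered and that doxycycline and blue light control, and #i, #ii, #iii, #iv and #v (3 libraries each), the mini-colon AKP lines, were organoids grown from tumours of mini-colons, which are colon epithelia shaped as a tube on a chip. In vivo AKP (6 libraries) came from colon tumours of *Cdx2-creERT2* AKP mice, in which the *Cdx2* promoter drives the Cre in gut epithelium and tamoxifen at 8 to 10 weeks of age activated it 6 weeks before collection. The study's text calls line #i enriched in lumen-derived and #v in crypt-derived tumours, and every culture had 3 days of growth followed by 24 h without growth factors. The study's methods speak of independent sets of samples for this RNA-seq, but the labels do not say which library belongs to which set, mouse or culture, so p-values measure the spread between libraries.

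Glycolysis splits glucose into pyruvate. Glucose carriers of the SLC2A family bring the sugar in, hexokinases and phosphofructokinases commit it, and the enzymes from aldolase to pyruvate kinase take it to pyruvate. Lactate dehydrogenase turns pyruvate to lactate, which the monocarboxylate carriers of the SLC16A family export or import, whereas the pyruvate dehydrogenase complex sends it into mitochondria unless its kinases (PDK) shut it off. Fructose bisphosphatases and phosphoenolpyruvate carboxykinases run the reverse path. Many of these genes are known targets of the hypoxia-inducible factor HIF-1 and of MYC.

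Total counts ranged from 2438672 to 8256526 per library. Each library code holds the letter E or F, and what the letter stands for is not given in the sources used here. Control, organoid AKP and in vivo AKP had replicates 1 to 3 under E and 4 to 6 under F, lines #i, #ii and #iii were E, and #iv and #v were F. Median totals were 3361206 counts over the 18 E libraries and 5916668 over the 15 F libraries. Mature colonocyte markers, 7 genes with *Krt20* and *Guca2a* among them, summed to between 8553 and 11229 CPM in control libraries and to between 2.31 and 31.9 CPM in organoid AKP. Cycling markers summed to between 295 and 404 CPM in control and to between 2239 and 2761 CPM in organoid AKP, and mitochondrial genes took between 3.93% and 4.88% of counts in control against between 1.36% and 3.81% in all other libraries. *Epcam*, *Krt8* and the other general epithelial markers had counts in every line except *Cdx1*, which had none in #i, #iii and in vivo AKP. These 8 genes summed to between 9371 and 10787 CPM in control and to between 3073 and 3556 CPM in organoid AKP. *Trp53* was at between 1.07 and 3.78 CPM in organoid AKP, 14.4 to 19.1 CPM in control and 19.2 to 34.2 CPM in in vivo AKP. Among the mini-colon AKP lines it was at 7.37 to 11.7 CPM in #iii and at 1.97 to 3.93 CPM in the others. Since reads mark the 3′ end, which need not lie in the deleted part, these values check no label. *Xist* was at 438 CPM or more in the in vivo AKP libraries and at 1.72 CPM or less in the other lines, and *Ddx3y* was at 0.400 CPM or less in in vivo AKP only, so in vivo AKP and the other lines also differ in sex-linked genes.

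**Figure D1:**
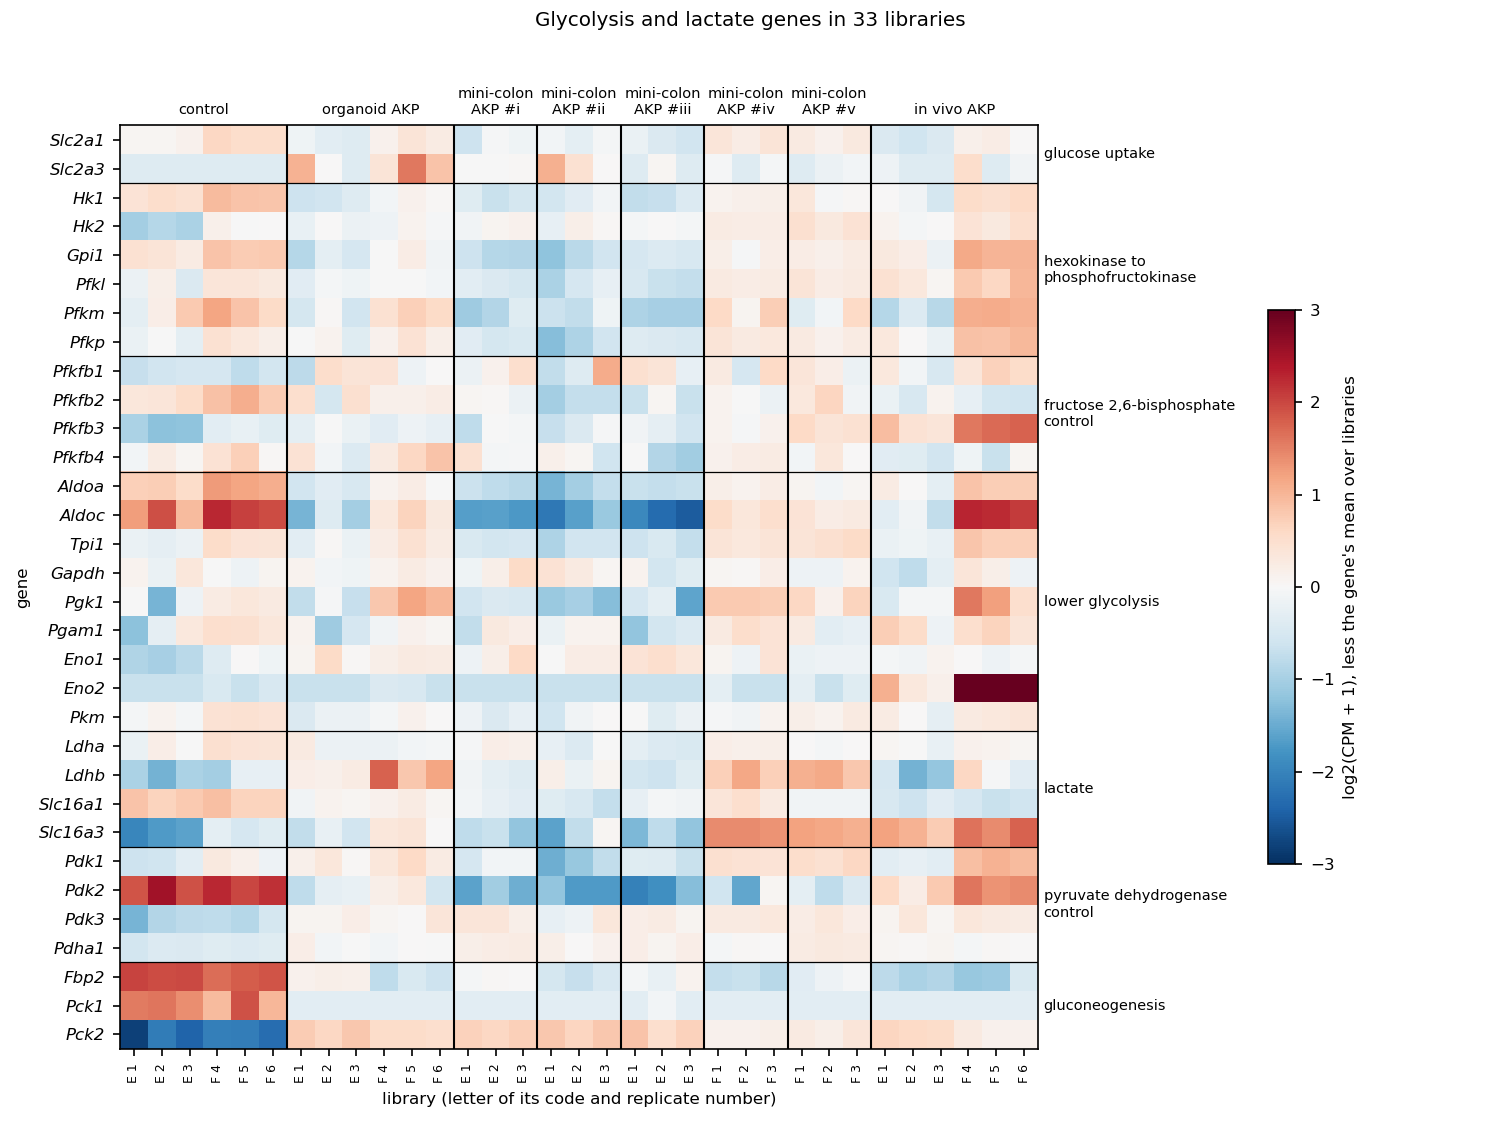
Levels of the 32 members past the filter (rows, grouped by role) in the 33 libraries (columns, grouped by line), as log2(CPM + 1) less the gene's mean over all libraries, with colours ending at ±3. *Fbp2*, *Pck1* and *Pdk2* stand out as high in control, *Pck2* as low in control, *Eno2* and *Pfkfb3* as high in in vivo AKP, and F libraries as redder than E libraries for many members.

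Promoters, 250 bases before to 50 bases after each start, were given by RefSeq (GRCm38.p6) for 33 of the 34 members, 52 starts in all. *Slc2a3* had no entry. The letters ACGTG, the core that HIF factors bind, were present on either strand in 22 of the 52 (42.3%) and in 19.6% of all 32851 promoters. GCGTG, the other form of this core, was in 26 (50%) against 32.4% of all. The E-box CACGTG, bound by MYC with MAX and containing ACGTG, was in 7 (13.5%) against 7.15% of all. Stretches of 100 bases before the start are shown for 4 members with large differences between lines, with these motifs in capitals, because the matches differ among them.
*Slc16a3* (chr11:120948967-120949066, plus strand, bases 100 to 1 before the start): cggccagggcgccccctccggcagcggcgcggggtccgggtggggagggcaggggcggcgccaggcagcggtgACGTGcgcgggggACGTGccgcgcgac
*Pfkfb3* (chr2:11553940-11554039, minus strand, bases 110 to 11 before its first listed start): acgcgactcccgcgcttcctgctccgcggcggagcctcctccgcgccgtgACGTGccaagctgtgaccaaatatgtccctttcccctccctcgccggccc
*Aldoc* (chr11:78322973-78323072, plus strand, bases 100 to 1 before its first listed start): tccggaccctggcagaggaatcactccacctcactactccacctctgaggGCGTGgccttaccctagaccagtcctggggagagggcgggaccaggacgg
*Eno2* (chr6:124769674-124769773, minus strand, bases 100 to 1 before the start): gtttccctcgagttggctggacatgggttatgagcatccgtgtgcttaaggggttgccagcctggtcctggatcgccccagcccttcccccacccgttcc
The *Slc16a3* stretch held ACGTG at 2 places, the *Pfkfb3* stretch at 1 place, the *Aldoc* stretch held GCGTG at 1 place and the *Eno2* stretch held none of the 3 motifs. A match is a description of letters and not of a bound site.

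Organoid AKP was compared with control to ask what recombination of the AKP alleles changed in organoid culture. Of the 32 members tested, 8 were higher and 12 lower in organoid AKP (adjusted p under 0.05, quasi-likelihood test of edgeR over all genes), where 37.3% of all genes tested were higher and 33.6% lower, so the members were called about as often as genes at large. Without the 3 genes that passed the filter through 1 line, 7 of 29 were higher and 11 lower. The median log2 fold change of the members was −0.05, beside 0.06 over all genes. Changes went both ways within most steps of the pathway. The gluconeogenic gene *Fbp2* fell together with *Pdk2* and both aldolases, while *Pck2*, *Ldhb* and *Pdk3* rose. *Pck1* was lower too, but it is among the 3 genes that had to differ between lines. Mature colonocyte, general epithelial and cycling markers, given above, moved with this comparison. Their part in it was not tested, since in bulk RNA fewer cells of a type and less RNA per cell cannot be told apart.

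Glucose uptake was represented by *Slc2a1*, the widespread carrier GLUT1, at 188 to 278 CPM in control (median 228) and 138 to 237 CPM in organoid AKP (median 180). Its log2 fold change was −0.33 ± 0.14 (SE, adjusted p = 0.0405), and the call was lost without control replicate 4, 5 or 6, with log2 fold changes between −0.29 and −0.26. *Slc2a3*, the high-affinity carrier GLUT3, had no count in the 6 control libraries and 39 counts in organoid AKP, 0 to 2.94 CPM, which is 12.6-fold a floor of 3 counts over the control group. Its organoid AKP values were low and reached 0 in replicate 3, so the groups met at 0.

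*Hk1*, the hexokinase of most tissues, fell from 153 to 225 CPM in control (median 185) to 74.2 to 125 CPM in organoid AKP (median 98.1), with no overlap (log2 fold change −0.91 ± 0.15, adjusted p = 3.47e-06). *Hk2*, the inducible hexokinase of muscle and tumours, was at 85.2 to 95.2 CPM in E and 171 to 190 CPM in F control libraries, and at 147 to 187 CPM in organoid AKP. Organoid AKP was therefore above control within E (log2 fold change 0.81 ± 0.10, adjusted p = 2.0e-10) but not within F (−0.06 ± 0.09, adjusted p = 0.52), and these differed (adjusted p = 3.5e-06), whereas over both letters the value was 0.28 ± 0.15 (adjusted p = 0.0954). *Gpi1*, which interconverts glucose and fructose 6-phosphate, fell from a median of 600.2 to 340 CPM (log2 fold change −0.82 ± 0.18, adjusted p = 0.000174). The phosphofructokinases *Pfkl*, *Pfkm* and *Pfkp* did not pass the test over both letters, with log2 fold changes of −0.23, −0.46 and 0.00. *Pfkl* was lower within F (−0.37 ± 0.13, adjusted p = 0.00936) and at −0.04 ± 0.14 within E, and *Pfkm* was lower within E (−0.71 ± 0.32, adjusted p = 0.0422) and at −0.33 ± 0.20 within F.

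The bifunctional enzymes of the PFKFB family make or remove fructose 2,6-bisphosphate, the activator of phosphofructokinase. *Pfkfb1*, the liver and muscle form, was low throughout, at 1.41 to 1.89 CPM in control (median 1.77) and 1.36 to 4.88 CPM in organoid AKP (median 3.71), and its rise (1.01 ± 0.36, adjusted p = 0.0134) became 0.82 (adjusted p = 0.0502) without organoid AKP replicate 2. Within E the rise of *Pfkfb1* was 1.04 ± 0.57 (adjusted p = 0.102) and within F 0.97 ± 0.42 (adjusted p = 0.0365). *Pfkfb2*, known from heart, fell by 0.64 ± 0.23 on the log2 scale (adjusted p = 0.0135), and by 0.53 (adjusted p = 0.0530) without control replicate 5. It fell within F (−0.89 ± 0.27, adjusted p = 0.00296) and was at −0.22 ± 0.38 within E (adjusted p = 0.621). *Pfkfb3*, the form that strongly favours synthesis, was at 10.5 to 13.0 CPM in E and 19.9 to 22.2 CPM in F control libraries and at 20.3 to 25.7 CPM in organoid AKP. It was higher in organoid AKP within E (1.02 ± 0.21, adjusted p = 2.1e-05) and at 0.06 ± 0.15 within F (adjusted p = 0.72), a difference between letters of −0.96 ± 0.26 (adjusted p = 0.0071). *Pfkfb4* was at 1.62 to 5.35 CPM in both lines and did not pass the test (0.10 ± 0.27).

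Among the enzymes from aldolase to pyruvate kinase both aldolases fell. *Aldoa*, the muscle-type aldolase found in most cells, was at 1634 to 2677 CPM in control (median 2105) and 740 to 1281 CPM in organoid AKP (median 992), with no overlap (log2 fold change −1.10 ± 0.16, adjusted p = 5.53e-07). *Aldoc*, the brain-type aldolase, went from 117 to 293 CPM (median 235) to 22.5 to 96.5 CPM (median 60.2), also with no overlap (−1.87 ± 0.43, adjusted p = 0.000412). The fall of *Aldoc* was present within E (−2.35 ± 0.25) and within F (−1.66 ± 0.20). *Tpi1*, *Gapdh*, *Pgk1* and *Pgam1*, the enzymes between aldolase and enolase, had log2 fold changes between −0.45 and 0.51 and did not pass the test over both letters. *Pgk1* was higher within F (0.76 ± 0.22, adjusted p = 0.00368) and at −0.03 ± 0.36 within E, and the difference between letters did not pass (adjusted p = 0.247). *Eno1*, the common enolase, rose from a median of 24.5 to 43.4 CPM (0.71 ± 0.14, adjusted p = 4.9e-05), and *Pkm*, which holds the M1 and M2 forms of pyruvate kinase, fell by 0.33 ± 0.12 on the log2 scale (adjusted p = 0.0120). *Pkm* was lower within F (−0.39 ± 0.12, adjusted p = 0.00618) and at −0.25 ± 0.13 within E (adjusted p = 0.0864). *Eno2*, the neuronal enolase, had 2 counts in each line.

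Counts of 4 of these genes are uncertain because the last 300 bases of their transcripts match other places of GRCm39 at 95% identity or more over at least 200 bases. *Gapdh* had 38 such places, *Pgk1* 3, and *Pgam1* and *Eno1* 4 each. *Eno1b*, a copy of *Eno1*, held 29275 counts over all libraries where *Eno1* held 5778, and it was at 50.2 to 143 CPM in control and 147 to 351 CPM in organoid AKP. *Ldhb* and *Pck2* had 1 such place each. Without the first 4 genes, 7 members were higher and 12 lower.

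For lactate, *Ldha*, the subunit that dominates in glycolytic tissue, was at 1119 to 1789 CPM in control (median 1568) and 1121 to 1526 CPM in organoid AKP (median 1172), with −0.29 ± 0.10 (adjusted p = 0.00717) over both letters. On the log2 scale the change was −0.53 ± 0.10 within F and −0.03 ± 0.10 within E. The letters differed in this (adjusted p = 0.0090). *Ldhb*, the heart-type subunit, was near the limit of the counts, with 20 counts at 0 to 1.23 CPM in control and 120 counts at 1.95 to 8.01 CPM in organoid AKP, and its groups did not overlap (log2 fold change 2.47 ± 0.50, adjusted p = 4.78e-05). *Slc16a1*, the carrier MCT1, fell from 335 to 396 CPM (median 352) to 195 to 250 CPM (median 224) without overlap (−0.68 ± 0.08, adjusted p = 1.36e-09). *Slc16a3*, the carrier MCT4 known for lactate export from glycolytic cells, rose by 0.81 ± 0.27 (adjusted p = 0.0101), from 22.6 to 28.8 to 53.8 to 77.4 CPM within E and from 63.3 to 73.5 to 90.8 to 118 CPM within F.

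The kinases of pyruvate dehydrogenase went in different directions. *Pdk2*, a widely expressed isoform, fell from 26.8 to 41.7 CPM in control (median 31.1) to 3.40 to 8.25 CPM in organoid AKP (median 5.30) with no overlap (−2.46 ± 0.24, adjusted p = 4.24e-11). *Pdk3* rose from 12.7 to 24 CPM (median 19.6) to 35.5 to 45.2 CPM (median 37.4), also with no overlap (1 ± 0.11 on the log2 scale, adjusted p = 1.47e-09). *Pdha1*, a subunit of the dehydrogenase itself, rose from a median of 163 to 215 CPM (0.42 ± 0.06, adjusted p = 3.08e-07). *Pdk1*, a HIF-1 target, had 0.46 ± 0.21 over both letters (adjusted p = 0.0547) and was higher within E (0.69 ± 0.14, adjusted p = 2.1e-05) and within F (0.31 ± 0.12, adjusted p = 0.0167).

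Of the gluconeogenic members *Pck2* rose and *Fbp2* fell. *Pck2*, the mitochondrial phosphoenolpyruvate carboxykinase, was at 14.6 to 25.2 CPM in control (median 22.7) and 153 to 189 CPM in organoid AKP (median 161), a 7.64-fold rise (log2 fold change 2.93 ± 0.11, adjusted p = 1.44e-21) that was larger within E (3.20 ± 0.12) than within F (2.71 ± 0.10, adjusted p of the difference 0.039). *Pck1*, the cytosolic form, had 62 counts at 1.41 to 3.70 CPM in control (median 2.48) and none in organoid AKP, where its control level is 21.3-fold a floor of 3 counts over the group. *Fbp2*, the muscle-type fructose bisphosphatase, fell from 205 to 262 CPM (median 243) to 37.2 to 71.5 CPM (median 57.6), with log2 fold changes of −1.86 ± 0.11 within E and −2.43 ± 0.11 within F. For *Pck2* and *Fbp2* the 6 control libraries lay outside the range of organoid AKP. *Pck1* passed the filter only through control, so its lower level in organoid AKP is no separate result.

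**Figure D2:**
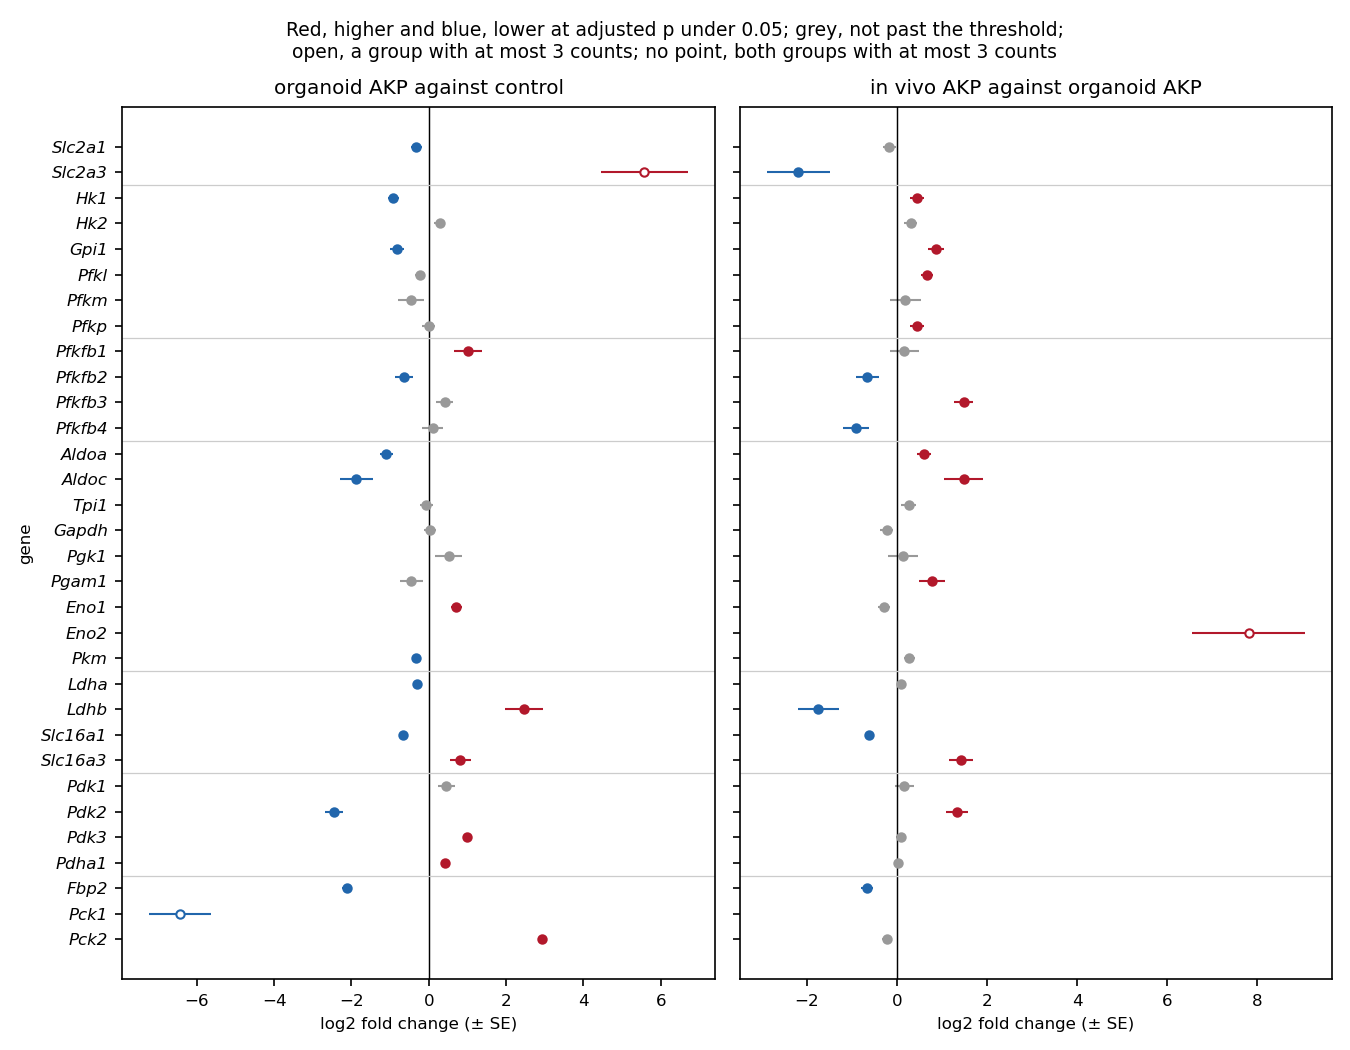
Log2 fold changes with SE of the 32 members tested in organoid AKP against control (left) and in vivo AKP against organoid AKP (right), with red for higher, blue for lower and grey for members not past an adjusted p of 0.05, open points where 1 group had at most 3 counts, and no point where both had. The open points of *Slc2a3* and *Pck1* mark the ends on the left, where *Pck2* (2.93) is the highest filled point, and the open point of *Eno2* marks the upper end on the right.

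In vivo AKP was compared with organoid AKP to ask how tumour-derived cells differ from cells recombined in organoid culture. Of the 32 members tested, 11 rose and 6 fell in in vivo AKP, where 17.4% of all genes were higher and 17% lower, and the median log2 fold change was 0.16 beside 0.00 over all genes. Without the 3 genes that passed the filter through 1 line, 10 of 29 rose and 5 fell. *Eno2*, *Pfkfb3*, *Aldoc*, *Slc16a3* and *Pdk2* rose by at least 1 log2 unit, and *Slc2a3* and *Ldhb* fell by as much. *Eno2* and *Slc2a3* are among the 3 genes that had to differ between lines. *Gpi1*, *Pfkl*, *Aldoa*, *Hk1*, *Pfkp* and *Pgam1* rose by less. Of the 32 members, 4 had all in vivo AKP libraries above all organoid AKP libraries and 1 had them all below, where 7.19% and 6.99% of all genes did. One of the 4 was *Eno2*. This comparison shares the organoid AKP libraries with the comparison above. Fibroblast and muscle markers summed to between 38.6 and 276 CPM in in vivo AKP and to between 4.43 and 22.7 CPM in organoid AKP. Of these 10 genes 6 had counts in in vivo AKP, *Vim* alone passed the filter, and *Col3a1*, *Dcn*, *Lum* and *Des* were at 0. Endothelial markers summed to between 2.14 and 5.20 CPM against between 0.890 and 3.25 CPM. Their part in the changes was not tested.

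*Eno2* (chr6:124736247-124746636, minus strand, GRCm39) was close to absent outside in vivo AKP, with 8 counts in all other libraries together. In vivo AKP held 619 counts, at 2.31, 0.961 and 0.768 CPM in E replicates 1, 2 and 3 and at 41.4, 43.6 and 45.2 CPM in F replicates 4, 5 and 6. Every in vivo AKP library lay above every organoid AKP library, which had 2 counts together. *Eno2* passed the filter only through in vivo AKP, so this separation is no separate result. The ratio of the group totals was 293 (95% exact counting interval 80.7 to 2423). That interval pools both letters and does not cover the spread between libraries. Within in vivo AKP the F libraries were higher than the E libraries by 4.96 ± 0.28 log2 units.

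*Slc2a3* had 39 counts in organoid AKP and 8 in in vivo AKP. It passed the filter only through organoid AKP, so its lower level here is no separate result. Organoid AKP replicate 5 alone held 2.94 CPM. *Slc2a1* did not pass the test (−0.17 ± 0.14).

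The first steps were mostly higher. *Gpi1* went from a median of 340 to 629 CPM (0.87 ± 0.18, adjusted p = 0.000286), and it rose within E (0.65 ± 0.13) and within F (1.01 ± 0.13). *Pfkl*, the liver-type phosphofructokinase, rose from 131 to 164 CPM to 173 to 333 CPM with no overlap (0.68 ± 0.13, adjusted p = 0.000115). *Hk1* (0.44 ± 0.15, adjusted p = 0.0242) and *Pfkp*, the platelet type (0.44 ± 0.16, adjusted p = 0.0337), were called too. The call of *Hk1* was lost without in vivo AKP replicate 4, 5 or 6 (0.35 to 0.39), and that of *Pfkp* without organoid AKP replicate 3 or in vivo AKP replicate 4, 5 or 6 (0.33 to 0.39). *Pfkp* also differed between letters, at 0.13 ± 0.13 within E and 0.65 ± 0.12 within F (adjusted p of the difference 0.037). *Hk2* (0.30 ± 0.15, adjusted p = 0.117) and *Pfkm*, the muscle type (0.19 ± 0.34, adjusted p = 0.716), did not pass over both letters. Within F *Hk2* was at 0.43 ± 0.09 (adjusted p = 4.98e-05) and *Pfkm* at 0.53 ± 0.21 (adjusted p = 0.0328), within E at 0.15 ± 0.09 and −0.43 ± 0.32, and neither difference between letters passed (adjusted p = 0.120 and 0.0689).

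*Pfkfb3* (chr2:11476244-11558888, minus strand, GRCm39) rose from 20.3 to 25.7 CPM in organoid AKP (median 22.2) to 34 to 91.2 CPM in in vivo AKP (median 65.4) with no overlap (1.48 ± 0.21, adjusted p = 1.31e-06). In vivo AKP was at 50.4, 35.4 and 34 CPM in E and at 80.3, 87.2 and 91.2 CPM in F replicates, so the rise was 0.79 ± 0.16 within E and 1.98 ± 0.14 within F (adjusted p of the difference 2.3e-05). The other PFKFB genes went down or did not pass. *Pfkfb4*, a HIF-1 target, fell by 0.92 ± 0.29 on the log2 scale (adjusted p = 0.0121) and by 0.74 (adjusted p = 0.0564) without organoid AKP replicate 6. It fell within F (−0.995 ± 0.349, adjusted p = 0.0154) and was at −0.605 ± 0.446 within E (adjusted p = 0.325). *Pfkfb2* fell by 0.66 ± 0.25 (adjusted p = 0.0399), a call lost without any one of organoid AKP replicates 1, 3, 4, 5 and 6 and in vivo AKP replicates 2, 4, 5 and 6, with log2 fold changes between −0.68 and −0.55. It passed neither within E (−0.55 ± 0.37, adjusted p = 0.271) nor within F (−0.81 ± 0.36, adjusted p = 0.0571). *Pfkfb1* was at 0.16 ± 0.32.

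*Aldoc* (chr11:78213619-78218889, plus strand, GRCm39) was at 35.7 to 55.9 CPM in the E and 263 to 297 CPM in the F libraries of in vivo AKP, beside 22.5 to 46.2 CPM in E and 74.2 to 96.5 CPM in F libraries of organoid AKP. Its rise over both letters was 1.48 ± 0.43 (adjusted p = 0.00856). It was 1.78 ± 0.21 within F (adjusted p = 1.4e-07) and did not pass within E (0.51 ± 0.26, adjusted p = 0.15), a difference of 1.27 ± 0.34 (adjusted p = 0.0089). *Aldoa* rose from a median of 992 to 1582 CPM (0.60 ± 0.16, adjusted p = 0.00454) and passed within E (0.47 ± 0.12) and F (0.68 ± 0.11).

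*Tpi1*, triosephosphate isomerase, was at 0.26 ± 0.17 over both letters (adjusted p = 0.264), at −0.03 ± 0.09 within E and at 0.45 ± 0.08 within F (adjusted p of the difference 0.0025). *Pgam1*, with its uncertain counts, rose by 0.77 ± 0.29 (adjusted p = 0.0361), and the call was lost without organoid AKP replicate 2, 3 or 4 or in vivo AKP replicate 1, 2, 4 or 5 (0.67 to 0.78). It rose within E (1.13 ± 0.40, adjusted p = 0.0253) and was at 0.58 ± 0.32 within F (adjusted p = 0.130). *Gapdh*, *Pgk1*, *Eno1* and *Pkm* had log2 fold changes between −0.29 and 0.28 and did not pass, and within E *Gapdh* was lower (−0.50 ± 0.18, adjusted p = 0.0383).

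Of the lactate genes the carriers went in opposite directions. *Slc16a3* (chr11:120838846-120851694, plus strand, GRCm39) rose from 53.8 to 118 CPM in organoid AKP (median 84.1) to 153 to 308 CPM in in vivo AKP (median 226), with no overlap (1.41 ± 0.27, adjusted p = 0.000128). It rose within E (1.52 ± 0.24) and within F (1.37 ± 0.22). *Slc16a1* fell from 195 to 250 CPM to 133 to 165 CPM with no overlap (−0.62 ± 0.08, adjusted p = 5.79e-08). *Ldhb* fell from 120 to 36 counts, from a median of 2.90 to 0.991 CPM (−1.75 ± 0.45, adjusted p = 0.00250), and *Ldha* did not pass (0.09 ± 0.10, adjusted p = 0.531). *Csnk1d* overlaps the 3′ end of *Slc16a3* on the other strand, and the strand setting of the counting is not given in the sources used here. *Csnk1d* was at 121 to 152 CPM in organoid AKP and 129 to 163 CPM in in vivo AKP. Genes on the other strand also cover the 3′ end of other members, with their counts over all libraries in brackets. They are *Pitrm1* at *Pfkp* (10759), *Pcyt1b* at *Pdk3* (1467), *Spsb2* at *Tpi1* (928) and *Map3k15* at *Pdha1* (867). *Cfap410* at *Pfkl* (698), *Samd14* at *Pdk2* (352), *Tacr2* at *Hk1* (8) and *Iffo1* at *Gapdh* (4) are the others at members past the filter.

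*Pdk2* rose from 3.40 to 8.25 CPM to 7.69 to 22.0 CPM (median 15 CPM, 1.33 ± 0.24 on the log2 scale, adjusted p = 4.88e-05), and passed within E (1.07 ± 0.29) and F (1.57 ± 0.22). The groups overlapped only between 7.69 and 8.25 CPM. *Pdk1* went in opposite directions in the 2 letters, from 77.7 to 95.9 CPM down to 60.4 to 63.4 CPM within E (−0.48 ± 0.13, adjusted p = 0.0029) and from 90.8 to 115 CPM up to 143 to 158 CPM within F (0.56 ± 0.12, adjusted p = 6.9e-05). The difference was 1.04 ± 0.17 (adjusted p = 8.5e-06), and over both letters the value was 0.16 ± 0.21. *Pdk3* and *Pdha1* did not pass (0.09 ± 0.11 and 0.02 ± 0.06).

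*Fbp2* fell from a median of 57.6 to 33.3 CPM (−0.67 ± 0.14, adjusted p = 0.000178), by 1.04 ± 0.12 within E, and was at −0.25 ± 0.12 within F, which did not pass (adjusted p = 0.0892, adjusted p of the difference 0.0004). *Pck2* was at 117 to 168 CPM in in vivo AKP and did not pass over both letters (−0.23 ± 0.10, adjusted p = 0.0772), though it did within F (−0.35 ± 0.09, adjusted p = 0.000976). *Pck1* had no count in either line.

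**Figure D3:**
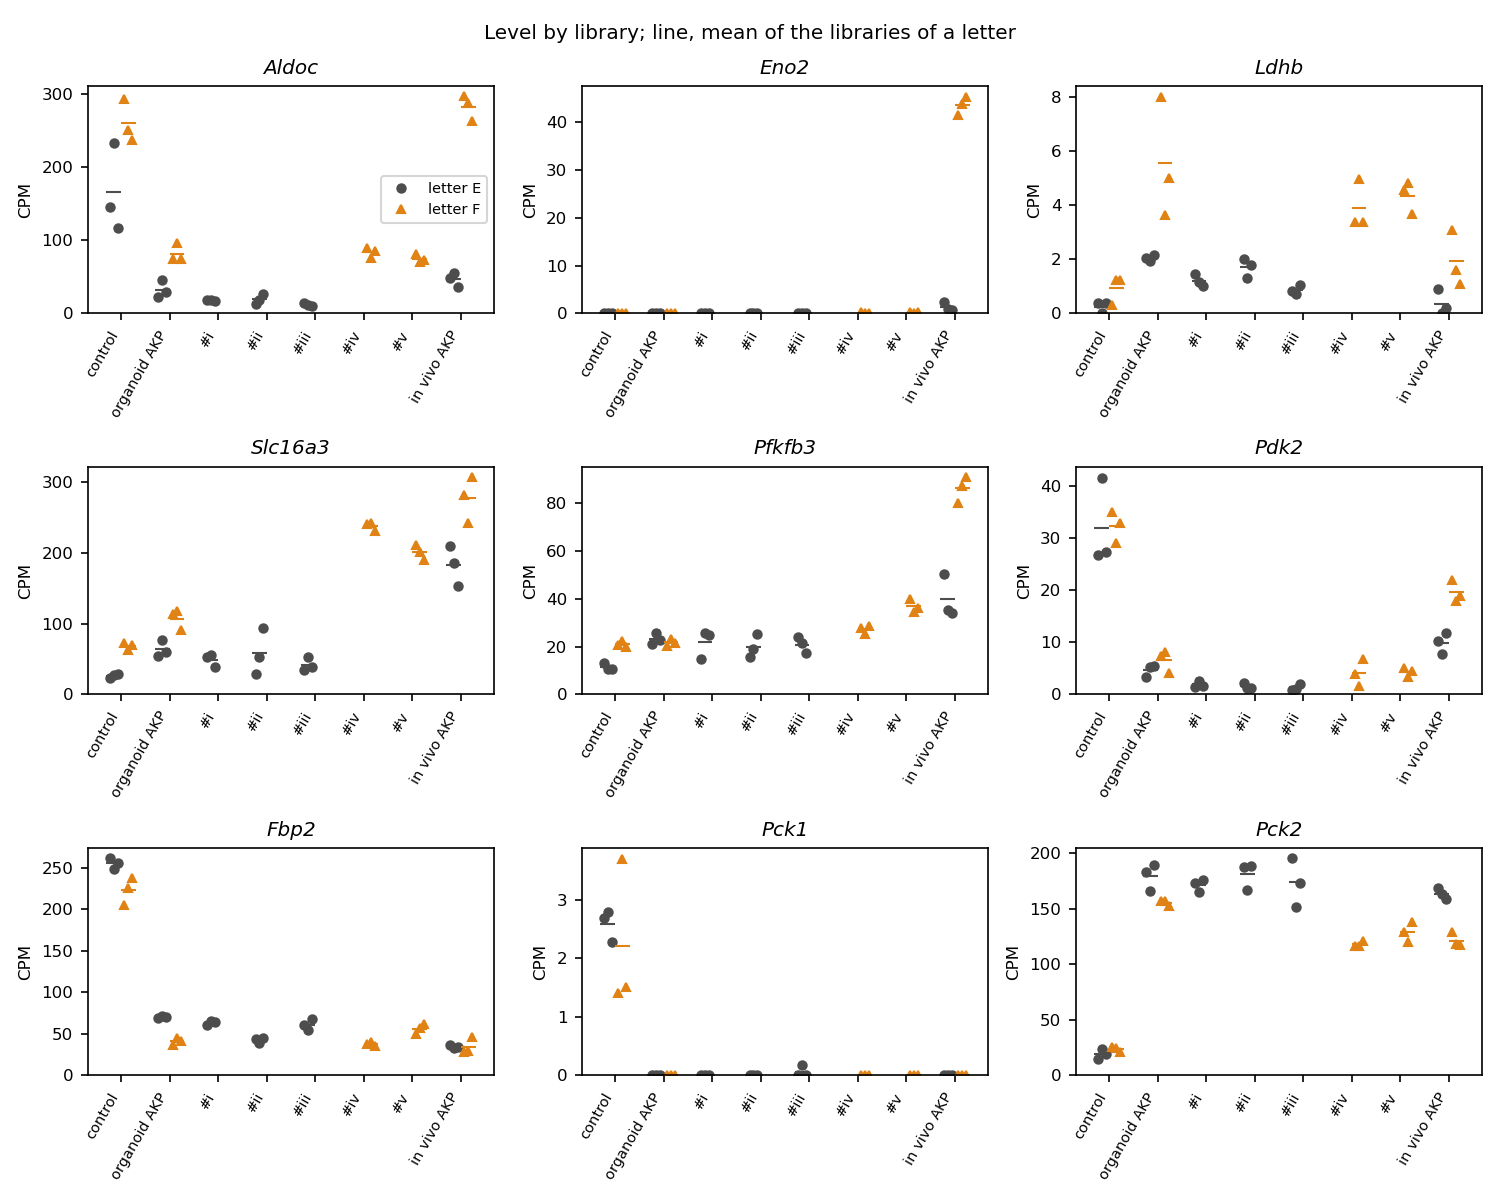
Levels in CPM of 9 members in every library of the 8 lines, with circles for E and triangles for F libraries and a line at the mean of the libraries of a letter. *Eno2* lies above 40 CPM in the 3 F libraries of in vivo AKP and at 2.31 CPM or less in its E libraries, *Slc16a3* is at 190 CPM or more in #iv, #v and the F libraries of in vivo AKP, and *Pck2* is at 25.2 CPM or less in control alone.

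The letter moved with these genes within single lines. In control, 15 of the 32 members were higher in F than in E libraries and 0 were lower, where 13.6% of all genes were higher and 8.51% lower. At an unadjusted p under 0.05, 19 were higher and 1 lower by edgeR. In organoid AKP 11 were higher and 1 (*Fbp2*) lower, against 15% and 15.4% of all genes, and in in vivo AKP 18 were higher and 1 (*Pck2*) lower, against 25.5% and 21.6%. *Tpi1* was higher in F in all 3 lines, by 0.67 ± 0.09 in control, 0.47 ± 0.09 in organoid AKP and 0.95 ± 0.09 in in vivo AKP. *Slc16a3* was higher by 1.40 ± 0.29, 0.76 ± 0.24 and 0.60 ± 0.21, and *Aldoc* by 0.65 ± 0.20, 1.34 ± 0.25 and 2.60 ± 0.22. F libraries had higher totals than E libraries in control and organoid AKP, but in in vivo AKP they had between 2438672 and 6735813 counts against between 5239486 and 5525914. The part of depth or of any other property of the letter was not tested.

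A test of the difference between letters of organoid AKP against control called 6 members, all of them with a lower value within F, where 5.12% of all genes were higher and 8.82% lower. They were *Hk2*, *Fbp2*, *Pfkfb3*, *Eno1*, *Ldha* and *Pck2*. For in vivo AKP against organoid AKP it called 6, all with a higher value within F, where 10.5% of all genes were higher and 10.3% lower. At an unadjusted p under 0.05 these were 1 higher and 7 lower for the first and 9 higher and 0 lower for the second. The 6 of the second were *Pdk1*, *Pfkfb3*, *Fbp2*, *Tpi1*, *Aldoc* and *Pfkp*.

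**Figure D4:**
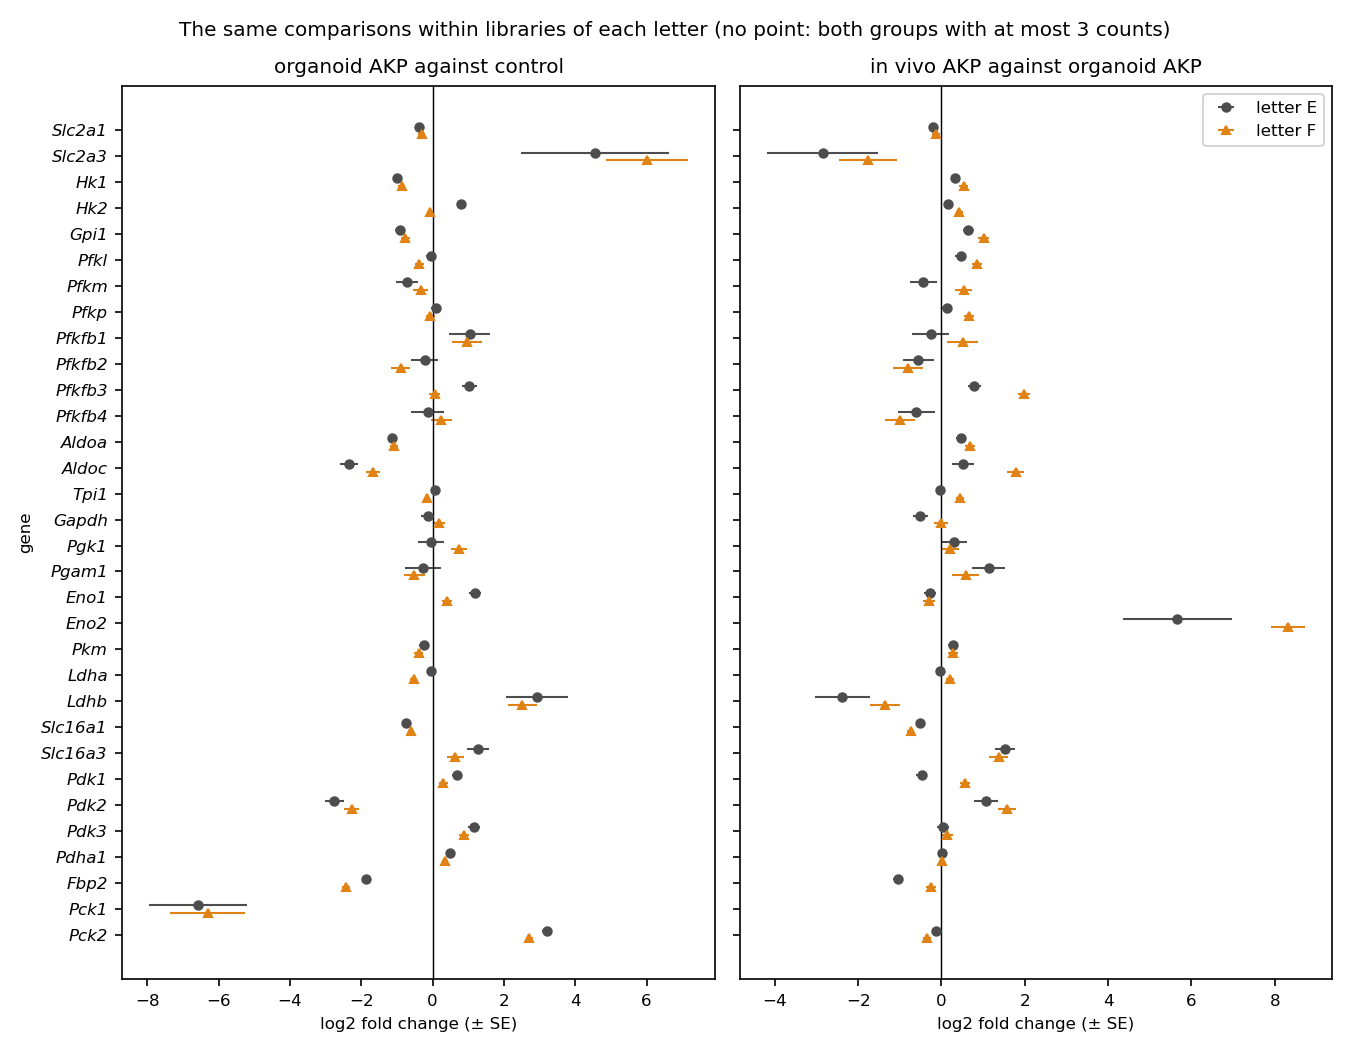
Log2 fold changes with SE of the members tested, computed within E libraries (circles) and within F libraries (triangles), for organoid AKP against control (left) and in vivo AKP against organoid AKP (right). *Hk2* and *Pfkfb3* separate on the left, and *Pdk1* lies at −0.48 within E and 0.56 within F on the right.

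Each mini-colon AKP line was compared with the 3 organoid AKP libraries of its own letter, which lines of the same letter share. In #i, 0 members were higher and 1 (*Tpi1*) lower, where 4.65% of all genes were higher and 5.02% lower. At an unadjusted p under 0.05 edgeR gave 1 higher and 7 lower, and DESeq2 and limma-voom also gave 0 higher at an adjusted p under 0.05. *Tpi1* was at 262, 245 and 252 CPM in #i and at 288, 370 and 316 CPM in organoid AKP of letter E (log2 fold change −0.36 ± 0.09, adjusted p = 0.00499). It was at −0.25 (adjusted p = 0.140) without organoid AKP replicate 2, when no member was lower. The count was 2 higher and 3 lower without organoid AKP replicate 1, and 2 lower without organoid AKP replicate 3 or #i replicate 1.

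In #ii, 9 members were lower and 0 higher, where 12.9% of all genes were lower and 12.6% higher. At an unadjusted p under 0.05 edgeR gave 12 lower and 0 higher, and DESeq2 and limma-voom gave 0 higher. The 9 were *Pfkl*, *Pfkp*, *Pfkfb2*, *Aldoa*, *Tpi1*, *Slc16a1*, *Pdk1*, *Pdk2* and *Fbp2*, so that all but glucose uptake among the roles held a member that fell. *Pdk1* was at 26.7, 34.2 and 45.3 CPM in #ii and 84.1, 95.9 and 77.7 CPM in organoid AKP of letter E (−1.24 ± 0.14, adjusted p = 7.26e-10). *Pdk2* was at 2.30, 1.31 and 1.31 CPM against 3.40, 5.20 and 5.39 CPM (−1.57 ± 0.43, adjusted p = 0.00447). *Fbp2* was at 44.0, 39.2 and 45.3 CPM against 69.4, 71.5 and 70.4 CPM (−0.71 ± 0.12, adjusted p = 4.54e-06). None of these 3 genes overlapped between the lines. Without #ii replicate 1, 2 members were higher. The call of *Pfkl* was lost without any of organoid AKP replicates 1, 2 and 3 and #ii replicates 1 and 2 (−0.40 to −0.16), and that of *Pfkfb2* (−1.53 ± 0.44) without organoid AKP replicate 3 (−1.28).

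In #iii, 6 members were lower and 0 higher, where 8.96% of all genes were lower and 9.27% higher. At an unadjusted p under 0.05 edgeR gave 9 lower and 0 higher, and DESeq2 and limma-voom gave 0 higher. The 6 were *Pfkl*, *Aldoc*, *Tpi1*, *Ldha*, *Pdk1* and *Pdk2*. *Aldoc* was at 14.9, 11.3 and 9.82 CPM in #iii and 22.5, 46.2 and 29.1 CPM in organoid AKP of letter E (−1.43 ± 0.33, adjusted p = 0.00339). *Pdk2* was at 2.10 CPM or less in the 3 libraries (−1.88 ± 0.46, adjusted p = 0.00211). Both genes lay below organoid AKP in every library. The call of *Ldha* (−0.36 ± 0.10) was lost without organoid AKP replicate 1 (−0.19), and that of *Pfkl* (−0.45 ± 0.14) without organoid AKP replicate 2 or 3 or #iii replicate 2 or 3 (−0.43 to −0.40).

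In #iv, 2 members were higher and 2 lower, where 5.57% of all genes were higher and 5.39% lower. Without *Slc2a3* 1 was lower. *Slc16a3* was at 241, 243 and 231 CPM in #iv and 114, 118 and 90.8 CPM in organoid AKP of letter F (1.15 ± 0.22, adjusted p = 0.000908), and *Pck2* was at 117, 116 and 121 CPM against 157, 157 and 153 CPM (−0.40 ± 0.09, adjusted p = 0.00160). Neither gene overlapped between the lines. *Ldha* was higher (0.28 ± 0.10, adjusted p = 0.0466), a call lost without any one of the 6 libraries compared (0.25 to 0.31). *Slc2a3* was the other lower member, with 2 counts against 33. It passed the filter only through organoid AKP, so its lower level here is no separate result. Without organoid AKP replicate 4 or 6 or any #iv replicate 1 member was higher, and without organoid AKP replicate 5 or #iv replicate 1 or 2, 1 was lower.

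In #v, 5 members were higher and 4 lower, where 12.4% of all genes were higher and 12% lower. Without *Slc2a3* 3 were lower. *Slc16a3* was at 211, 202 and 190 CPM (0.90 ± 0.22, adjusted p = 0.00363) and *Pfkfb3* at 40.1, 34.6 and 36.3 CPM in #v and 20.3, 23.4 and 21.7 CPM in organoid AKP of letter F (0.75 ± 0.15, adjusted p = 5.79e-05). *Hk2* (0.42 ± 0.09), *Fbp2* (0.46 ± 0.11) and *Pdha1* (0.30 ± 0.07) were the other members that rose. All #v libraries were above organoid AKP of letter F for each of these 5 members, and also for *Pfkl*, which was not called. *Slc2a3* had 3 counts against 33, and it passed the filter only through organoid AKP, so its lower level here is no separate result. *Eno1*, *Slc16a1* and *Pck2* fell by 0.41 ± 0.13, 0.26 ± 0.09 and 0.27 ± 0.09 on the log2 scale. Without organoid AKP replicate 5, 0 members were lower, without #v replicate 1 2 were, and without #v replicate 2 1 was. *Eno1* also lost its call without #v replicate 3 (−0.41 to −0.39 over its lost calls), *Slc16a1* without #v replicate 3 (−0.25 to −0.20) and *Pck2* without organoid AKP replicate 4 (−0.26 to −0.21).

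**Figure D5:**
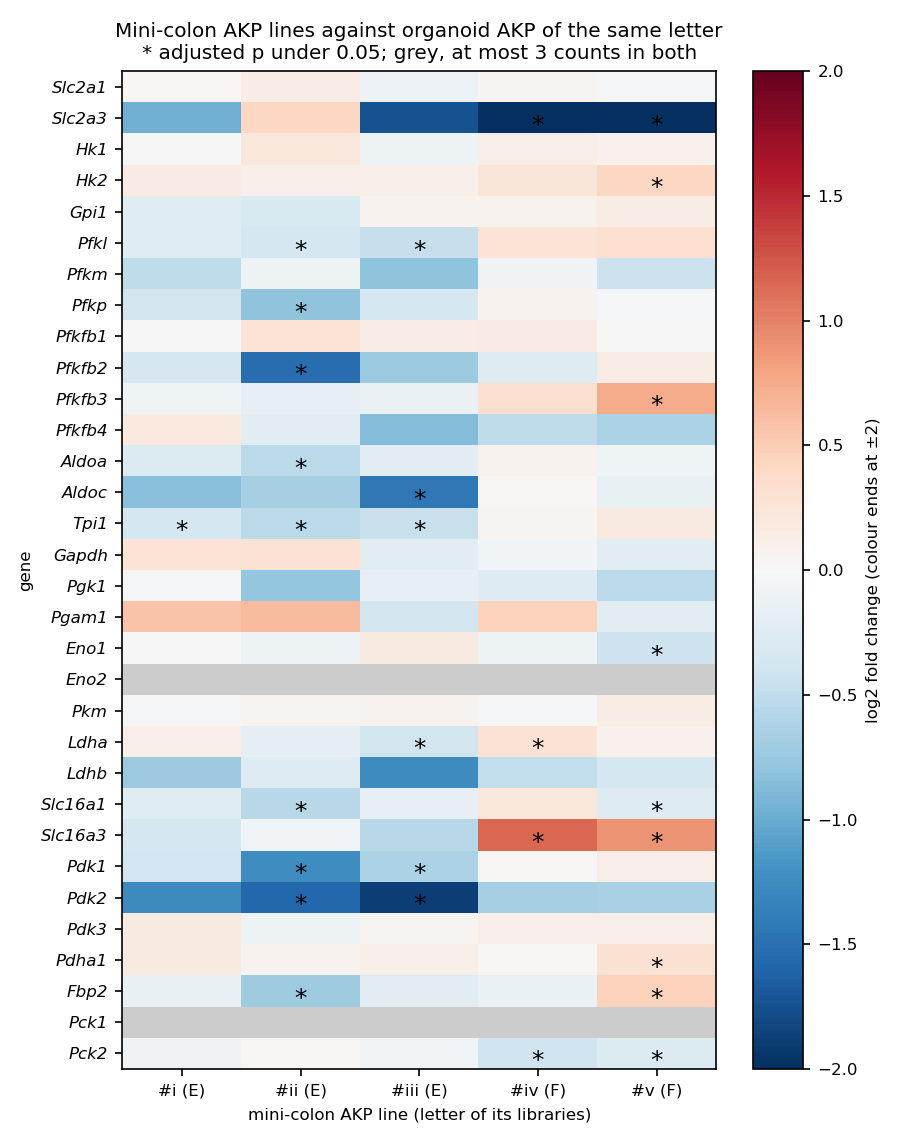
Log2 fold changes of the members tested (rows) in the 5 mini-colon AKP lines (columns) against organoid AKP of the same letter, with colours ending at ±2, an asterisk at an adjusted p under 0.05 and grey where both groups had at most 3 counts. Asterisks lie on lower values in #i, #ii and #iii, and *Slc16a3* is higher in #iv and #v.

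Lines #v and #i, from crypt-enriched and lumen-enriched tumours, were compared with each other, although #v libraries carry F and #i libraries E, so that origin and letter cannot be told apart by the lines alone. Of the 32 members 10 were higher and 1 (*Pck2*) lower in #v, where 12.5% of all genes were higher and 11.9% lower, and the median log2 fold change was 0.47 beside 0.03 over all genes. With the letter as a term, estimated from the 3 lines that hold both, 1 member (*Slc16a3*) was higher and 0 lower, and edgeR gave 4 higher and 3 lower at an unadjusted p under 0.05. The count of 10 was 5 without #i replicate 2, 4 without #i replicate 3, 5 without #v replicate 1 and 6 without #v replicate 2 or 3, and the lower call was lost without any one of the 6 libraries. Fibroblast and muscle markers summed to between 40.4 and 118 CPM in #v, where 5 of the 10 had counts and *Col1a2*, *Dcn*, *Lum*, *Pdgfrb* and *Des* were at 0, and to between 4.09 and 8.76 CPM in #i. Nearly all of these sums was *Vim*, at 39.9 to 117 CPM in #v and 3.80 to 8.47 CPM in #i. The part of these markers in the difference was not tested. Set against organoid AKP of their own letters, #v was above #i in 6 members and below in 0, where 8.38% of all genes were above and 8.1% below, and at an unadjusted p under 0.05 edgeR gave 8 and 1. *Slc16a3* was among the 6, with a difference of 1.26 ± 0.35 (adjusted p = 0.0141).

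*Slc16a3* was at 211, 202 and 190 CPM in #v and 52.9, 56.1 and 39.1 CPM in #i, a 4.06-fold difference (2.02 ± 0.40, adjusted p = 0.000775), and at 1.15 ± 0.30 with the letter as a term (adjusted p = 0.0127). *Aldoc* was at 80.8, 70.2 and 73.1 CPM against 18.4, 18.7 and 17.7 CPM (2.03 ± 0.68, adjusted p = 0.0320), and at 0.51 ± 0.48 with the letter as a term (adjusted p = 0.592). *Tpi1* was at 472, 506 and 540 CPM against 262, 245 and 252 CPM (1 ± 0.25 on the log2 scale, adjusted p = 0.00474), and at 0.31 ± 0.13 with the letter (adjusted p = 0.145). Every #v library was above every #i library for 17 of the 32 members, these 3 genes among them, and below for 3. The share of all genes that did so was not counted.

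*Ldhb* was at 4.58, 4.81 and 3.69 CPM in #v, 78 counts, and 1.46, 1.17 and 1.02 CPM in #i, 12 counts (1.80 ± 0.67, adjusted p = 0.0476), and at 0.06 ± 0.80 with the letter as a term. *Gpi1* (0.98 ± 0.26), *Pfkl* (0.72 ± 0.19), *Aldoa* (0.77 ± 0.23), *Hk1* (0.64 ± 0.22), *Pfkp* (0.66 ± 0.23) and *Pkm* (0.45 ± 0.16) were the other members called higher. *Aldoc*, *Ldhb*, *Pfkp* and *Pck2* lost the call without any one of the 6 libraries (1.98 to 2.07, 1.70 to 1.95, 0.62 to 0.72 and −0.46 to −0.36). *Hk1* lost it without #i replicate 2 or 3 or #v replicate 1 (0.53 to 0.64), *Aldoa* without #i replicate 3 (0.73) and *Pkm* without #i replicate 2 or 3 or any #v replicate (0.38 to 0.50).

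Other genes of sugar metabolism were described by lists chosen with earlier results known. Genes named in brackets are called genes with the smallest p, whether higher or lower. In organoid AKP against control 37.3% of all genes were higher and 33.6% lower. There 5 of 18 tested further isozymes and sugar carriers were higher and 12 lower, among them *Pklr* and *Slc2a9*, the liver-type pyruvate kinase and a urate and sugar carrier. Genes of mitochondrial pyruvate entry were higher in 4 and lower in 2 of 10 (*Pcx*, *Pdhx* and *Pdhb* first by p), further gluconeogenic genes in 1 and 2 of 5 (*Gpd2*, *Gk*, *Slc37a4*), monocarboxylate transport in 2 and 3 of 5 (*Slc5a8*, *Slc16a6*, *Emb*), the pentose phosphate pathway in 2 and 3 of 7 (*Taldo1*, *Rpia*, *Tkt*) and glycogen metabolism in 3 and 2 of 8 (*Pygb*, *Ugp2*, *Pygl*). MYC and glucose-sensing factors were higher in 1 and lower in 5 of 8. *Txnip*, a thioredoxin-binding protein induced by glucose, fell from 646 to 1673 CPM to 135 to 211 CPM (−2.85 ± 0.24, adjusted p = 7.7e-12), and *Mlx* and *Arrdc4* followed by p.

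In in vivo AKP against organoid AKP the same lists gave 2 higher and 1 lower of 18 further isozymes (*Eno3*, *Pklr*, *Pgm1*), 2 and 0 of 10 for pyruvate entry (*Pdp2*, *Pcx*), 2 and 1 of 5 for gluconeogenesis (*Gpd1*, *Gpd2*, *Gk*), 0 and 0 of 5 for monocarboxylate transport (1 and 1 at an unadjusted p under 0.05), 0 and 1 of 7 for the pentose phosphate pathway (*Rpia*), 2 and 0 of 8 for glycogen (*Gbe1* among them) and 4 and 1 of 8 for MYC and glucose-sensing factors (*Mycl*, *Max*, *Mlxipl*). In #v against #i the counts were 4 and 1 (*Eno3*, *Pgm1*, *Slc5a1*), 1 and 2 (*Pdp2*, *Mpc2*, *Pdhb*), 1 and 0 (*Slc37a4*), 0 and 0 (also at an unadjusted p under 0.05 by edgeR), 2 and 0 (*Pgd*, *Tkt*), 3 and 1 (*Gys1*, *Gyg1*, *Gbe1*) and 1 and 1 (*Arrdc4*, *Mlx*). Of all genes, 17.4% were higher and 17% lower in the first of these comparisons and 12.5% and 11.9% in the second. *Eno3*, the muscle enolase, fell in both comparisons (−2.41 ± 0.19 and −1.44 ± 0.26). Over the 61 genes tested in these 7 lists together, 0 were higher and 4 lower in #i against organoid AKP of its letter, 4 and 5 in #ii, 4 and 7 in #iii, 5 and 1 in #iv and 11 and 5 in #v. Shares of all genes were 4.65% higher and 5.02% lower in #i, 12.6% and 12.9% in #ii and 9.27% and 8.96% in #iii. They were 5.57% and 5.39% in #iv and 12.4% and 12% in #v.

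The hypoxia response list, 23 genes that HIF factors induce or that regulate them, had 7 higher and 7 lower members in organoid AKP against control (*Hif1a*, *Fam162a*, *P4ha2*). Of all genes 37.3% were higher and 33.6% lower there. In in vivo AKP against organoid AKP it had 6 higher and 2 lower members, where 17.4% of all genes were higher and 17% lower. First by p were *Epas1* and *Car9*, both lower, and *Bnip3*, which was higher. Against organoid AKP of their letter, 1 was higher and 7 lower in #i, 2 and 13 in #ii, 1 and 11 in #iii, 2 and 2 in #iv and 1 and 5 in #v. The shares of all genes in these comparisons are those given with the lists above. Median log2 fold changes of the hypoxia list were −0.41, −0.72, −0.32, 0.15 and 0.00. *Ankrd37*, a HIF-1 target, was at 33.7 to 61.5 CPM in control and 12.1 to 28.0 CPM in organoid AKP (median 22.5, both letters together). Lines of letter E lay below organoid AKP, at 3.74 to 5.26 CPM (#i), 0.862 to 3.77 (#ii) and 2.81 to 8.78 (#iii). Lines of letter F lay within its range, at 16.2 to 18 CPM (#iv) and 13.5 to 17.8 (#v). In #v against #i, where letter and line cannot be told apart, 14 were higher and 0 lower by edgeR (*P4ha2*, *Ankrd37*, *Car9*), or 16 and 0 at an unadjusted p under 0.05, with a median of 1.09. Of all genes 12.5% were higher and 11.9% lower in that comparison. *Hif1a* itself was at 111 to 127 CPM in organoid AKP and 179 to 219 CPM in #ii, where most of the list was lower. Its rise in #ii was 0.73 ± 0.09 (adjusted p = 3.2e-09). The other mini-colon lines also lay above organoid AKP, at 146 to 152 CPM in #i and 139 to 152 in #iii. Lines #iv and #v were at 127.5 to 138 and 129 to 137 CPM, beside 127.3 CPM in the highest organoid AKP library.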

How the data were processed

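RNA of 33 libraries had been sequenced from transcript 3′ ends (QuantSeq). The authors aligned reads with STAR to GRCm39 and counted them per gene, and the deposited values are raw counts. The counting tool, annotation and strand setting are not given in the sources used here. Identifiers were named by GENCODE M39 (31674 of 32285, the 611 others with 6.85% of counts). For genes at 1 CPM or more in 3 or more libraries, counts were fitted in edgeR 4.0.16 (R 4.3.3) after TMM scaling, by quasi-likelihood with robust dispersions, with 1 coefficient for each of the 8 lines, or for each line and letter where mini-colon lines or letters were compared. P-values were adjusted by Benjamini-Hochberg over all genes, with a threshold of 0.05. DESeq2 1.42.0, limma-voom (limma 3.58.1), median-ratio scaling, no filter, other sets of libraries, the letter as a term and leaving out each library were alternatives. The test was checked on simulated counts. Transcript ends were searched with BLAST 2.17.0, and Python 3.11.15 was used for tables and figures.

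Levels are TMM-scaled CPM. A ratio with 1 to 3 counts in a group has a 95% Clopper-Pearson interval covering counting error only, and a fold against no count uses a floor of 3 counts over the group. Members and lists were chosen with earlier results of these data known. Called members whose log2 change was 1 or larger in organoid AKP against control, in vivo AKP against organoid AKP or #v against #i are described with their libraries' values, the others by level, range and counts, and of each further list up to 3 called genes with the smallest p are named. *Txnip*, *Ankrd37*, *Hif1a* and *Eno3* were given values after they were seen. An allele of the AKP lines and 2 genes of the further lists are not reported here.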

Additional observations from a re-analysis of the deposited data

Results flagged for a closer look

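Of 90 sets of 6 libraries of 1 line, each for 1 member, 3 had a library far from the other 5 by Dixon's test, where chance flags about 1 in 20. All 3 were replicate 1 of organoid AKP, a library of letter E. It was the lowest for *Pfkl* (131 CPM) and the highest for *Ldha* (1526 CPM) and *Pdha1* (249 CPM).

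The change against organoid AKP of the same letter differed between #v and #i in 6 members by edgeR's test of the difference, where 8.38% of all genes had a higher and 8.1% a lower value in #v. The differences were 0.84 for *Pfkfb3*, 0.52 for *Pdk1*, 0.54 for *Tpi1*, 0.58 for *Pfkl*, 1.26 for *Slc16a3* and 0.61 for *Fbp2* on the log2 scale, each with the higher value in #v. These members include *Pdk1*, *Pfkl* and *Tpi1*, none of which was called in #v against organoid AKP of letter F (0.14, 0.34 and 0.18).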

How the results depend on the processing

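All counts here are of members called at an adjusted p under 0.05, unless they are of genes. Of the members called, 16 of 20 in organoid AKP against control and 9 of 17 in in vivo AKP against organoid AKP kept their call under every alternative other than leaving out a library, and 17 and 11 under every left-out library. The first comparison had between 7 and 10 higher and 10 and 13 lower members, and the second between 8 and 12 and between 4 and 7. No called member changed direction under an alternative that was run.

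In #v against #i, 5 members were higher and 0 lower with no filter, 17 and 2 (5997 genes) with only the libraries of both groups and 1 and 0 (1264 genes) with the letter as a term. Leaving out 1 library gave between 4 and 7 higher, 0 lower and between 2023 and 2329 genes.

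In #i against organoid AKP of its letter, 3 members were lower by DESeq2, 5 with no filter, 5 with only the libraries of both groups and 2 against all 6 organoid AKP libraries. Without 1 library between 0 and 2 were higher and 0 and 3 lower, with between 539 and 1513 genes. In #ii between 0 and 2 were higher. In #iv 5 were higher (2256 genes) with only the libraries of both groups, 1 was higher and 1 lower (667 genes) against all 6, and 1 was lower by DESeq2, and without 1 library between 1 and 2 were higher and between 1 and 2 lower. In #v 2 were higher and 1 lower (1440 genes) against all 6, and between 0 and 5 were lower without 1 library. For these and for #v against #i the cause was not tested.

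Between libraries of the same replicate number, deviations from the line mean correlated at 0.07 to 0.20 in the first comparison. In the second they correlated at 0.07 to 0.38. Deviations from the mean of line and letter correlated at −0.04 to 0.04 in the first and at −0.03 to 0.04 in the second comparison. Beyond the letter, replicate numbers therefore did not pair the libraries of these comparisons. With a replicate block 12 members were higher and 13 lower in the first, 14 and 6 in the second and 15 and 1 in #v against #i, while all genes called went from 9654 to 9969, from 4679 to 5353 and from 3327 to 4424. Lines #iv and #v share no replicate number with organoid AKP of letter F. Depth limits *Slc2a3*, *Pck1* and *Eno2*, each of which had 3 counts or fewer over all libraries of 1 of the groups in a comparison that called it or gave its ratio.

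Chosen after seeing the data, the difference of the changes in #v and #i called 6 members with median-ratio scaling, DESeq2 and limma-voom and 7 with no filter, and without *Gapdh*, *Pgk1*, *Pgam1* and *Eno1* in vivo AKP against organoid AKP had 10 higher and 6 lower members.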

Other observations

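The log2 ratio of 2 members within a library does not depend on how libraries are scaled to one another, and such ratios are given here without a test, as a change between lines and not as a comparison of the amounts of both genes. The ratio of *Slc16a3* to *Slc16a1*, the carriers MCT4 and MCT1, was −3.80 ± 0.25 (SD, n = 3) in E and −2.37 ± 0.09 (n = 3) in F libraries of control, −1.77 ± 0.18 and −1.13 ± 0.14 in organoid AKP and 0.27 ± 0.33 and 0.99 ± 0.15 in in vivo AKP. Within each letter the libraries of these 3 lines did not overlap. Mini-colon lines of letter E had −1.88 ± 0.21 (#i), −1.48 ± 1.03 (#ii) and −2.20 ± 0.24 (#iii), and those of letter F −0.20 ± 0.08 (#iv) and 0.04 ± 0.08 (#v).

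The ratio of *Hk2* to *Hk1* was between −0.84 and −0.24 in the 6 control libraries and between 0.39 and 1.33 in every library of the AKP lines. The ratio of *Pdk1* to *Pdk2* was 1.04 ± 0.45 (n = 6) in control, 4.10 ± 0.38 (n = 6) in organoid AKP and 2.79 ± 0.31 (n = 6) in in vivo AKP, and its line means lay between 4.45 and 5.45 in the mini-colon lines. That of *Pfkfb3* to *Pfkfb2* was 1.63 ± 0.25 in control, 2.80 ± 0.62 in organoid AKP and 4.85 ± 0.94 in in vivo AKP (n = 6 each). *Aldoc* to *Aldoa* was −4.59 ± 0.24 in E and −2.76 ± 0.07 in F libraries of in vivo AKP (n = 3 each), and −3.47 ± 0.43 and −3.27 ± 0.07 in those of control, where the letters lay within the spread.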
